A study of Rattus norvegicus with 10 samples.

Results

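Endothelial marker genes and genes of fatty acid handling were followed in bulk RNA sequencing of dorsal root ganglia of the rat at level L6, which house the cell bodies of sensory neurons. The set named 10 genes: Fabp4, Lpl and Cd36, which handle fatty acids, and the endothelial markers Pecam1, Cdh5, Cldn5, Flt1, Kdr, Tek and Vwf. A row under its own name was found for 8 of the 10, out of 30560 genes in the table, and all 8 had enough counts to be tested, while Cd36 and Cldn5 were not analysed here. The set was chosen by the measured difference in Fabp4, whose counts were lower in treated ganglia, and the others were set beside it to ask whether Fabp4 followed the capillary content of the ganglion or its fat. The difference between the groups is therefore given for these genes as a description, without a test.

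The treated group held 5 samples from Sprague Dawley rats given 0.75 mg of SCN9A_2544, an siRNA against Scn9a, in a volume of 30 to 45 µL. The other 5 samples came from rats given phosphate-buffered saline (PBS, 0 mg of siRNA) by the same route. All rats were 7 to 8 weeks old, had a lumbar intrathecal catheter implanted 5 days before dosing, received the painkiller meloxicam, and carry a timepoint label of 14 days. No group with a non-targeting siRNA was analysed here, and the labels do not say that each sample is a single animal, so the spread between samples may be partly technical.

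The libraries summed to between 11832376 and 15420006 estimated counts, and 15186 genes passed the filter for testing. Scn9a, which encodes the sodium channel Nav1.7, averaged 85.4 ± 23.9 CPM (counts relative to the scaled library size) in SCN9A_2544 ganglia and 175 ± 50.2 CPM in PBS ganglia (SD, n = 5 each), and the 2 groups did not overlap. Neuronal, Schwann cell and satellite glia markers were present in every library. Mean pan-neuronal expression ran from 8.33 to 9.66 log2 CPM in SCN9A_2544 libraries and from 8.55 to 9.72 in PBS libraries. The lowest 3 values belonged to SCN9A_2544 replicate 3 and PBS replicates 3 and 5, which had the highest Schwann cell means, 10.0, 9.85 and 9.70 log2 CPM.

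Endothelial cells line blood vessels. In peripheral ganglia the capillaries supply neurons with oxygen and fuel, including fatty acids that lipoprotein lipase releases from circulating triglyceride, that CD36 takes up and that fatty acid-binding proteins carry inside the cell. FABP4 is the fatty acid-binding protein of adipocytes, and capillary endothelium and macrophages make it too. Because so many cell types share this gene, its level in a whole tissue can move with any of them, and in bulk RNA fewer cells of a type and less RNA per cell cannot be told apart.

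Fabp4 (ENSRNOG00000010805) was lower in SCN9A_2544 ganglia. It stood at 1.09, 0.884, 1.63, 1.70 and 0.606 CPM in SCN9A_2544 replicates 1 to 5, against 2.82, 3.53, 3.86, 4.19 and 1.47 CPM in PBS replicates 1 to 5. Of the PBS libraries 4 lay above every treated library, and PBS replicate 5 lay within the treated range, below SCN9A_2544 replicates 3 and 4. The group means were 1.18 ± 0.47 CPM in SCN9A_2544 and 3.17 ± 1.08 CPM in PBS ganglia (SD, n = 5 each). On the scale of the edgeR fit the log2 fold change was -1.41 (SE 0.36, 95% interval -2.20 to -0.62), or 0.376-fold. The set was chosen for this difference, and neither the estimate nor its interval allows for that choice.

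Fabp4 was a gene of few counts in this tissue. The libraries held 9 to 27 counts in the SCN9A_2544 group and 22 to 55 in the PBS group, which sum to 88 (95% Poisson interval 70.6 to 108) and 220 (192 to 251). These intervals cover counting error only. For the lowest library, SCN9A_2544 replicate 5, the counting interval of its 9 counts spans 4.12 to 17.1, and for PBS replicate 5 with 22 counts it spans 13.8 to 33.3, so the order of single libraries is loosely fixed. Every Fabp4 count was a whole number as deposited, while Pecam1 had fractional counts in 4 libraries and Tek in 1.

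Lpl (ENSRNOG00000012181) encodes lipoprotein lipase, which parenchymal cells, adipocytes and macrophages secrete and which works on the capillary surface. Its values were 8.31, 11.1, 14.98, 17.2 and 14.1 CPM in SCN9A_2544 replicates 1 to 5 and 9.61, 21.7, 24.2, 14.95 and 57.7 CPM in PBS replicates 1 to 5. The groups overlapped, and PBS replicate 5, the PBS library with the least Fabp4, had the most Lpl of all 10. The log2 fold change was -0.96 (SE 0.41, 95% interval -1.86 to -0.07). It was -0.45 when PBS replicate 5 was left out and -0.31 when the 3 neuron-poor libraries named above were, so the size of this difference rests on few libraries. The plot of Fabp4 and Lpl by library shows these opposite positions of PBS replicate 5.

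**Figure D1:**
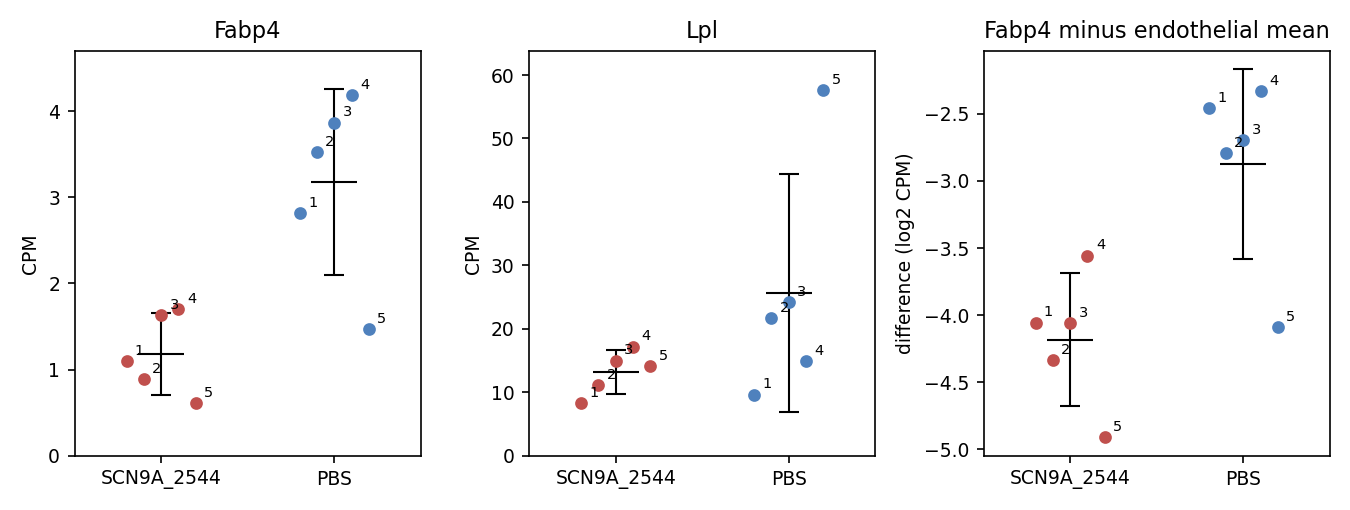
Fabp4 and Lpl in CPM, and log2 CPM of Fabp4 minus the mean log2 CPM of the 6 endothelial genes, in each library (points, numbered by replicate) with the group mean and SD (bars). For Fabp4, 4 of the 5 PBS libraries lie above all treated libraries, and PBS replicate 5, at 1.47 CPM, lies among them.

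The endothelial markers differed less between the groups than Fabp4 or Lpl did. Fabp4 was chosen for its difference in this same contrast, so its larger value follows from that choice and is not a finding. Of the 6 measured, 3 had a log2 fold change below 0 and 3 above 0, with a median of -0.04, against a median of 0.02 and 46.6% below 0 over all genes tested. In all 6 the groups overlapped. Among the 8 tested members 0 passed an adjusted p of 0.05 by edgeR's quasi-likelihood test, against 0% of all genes, and 0 passed by DESeq2 or by limma voom. An unadjusted p under 0.05 was reached by 2 of the 8, Fabp4 and Lpl, against 4.23% of all genes. Both were lower, against 1.73% of all genes that were lower at this p and 2.5% that were higher. Groups that did not overlap were found for 0 of the 8, against 0.665%. Nothing is read from these counts, since this contrast chose the set.

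Of the junction genes, Pecam1 (ENSRNOG00000066008) encodes CD31, an adhesion molecule at endothelial cell borders that platelets and leukocytes also carry. Pecam1 stood at 16.8, 14.5, 23.0, 12.97 and 18.9 CPM in SCN9A_2544 replicates 1 to 5 and at 12.2, 20.3, 19.0, 12.7 and 20.6 CPM in PBS replicates 1 to 5. The ranges nearly coincide, and the log2 fold change was 0.02 (SE 0.21), a sign that turned in both scaling alternatives. Cdh5 (ENSRNOG00000013324), VE-cadherin of the endothelial adherens junction, stood at 19.0, 22.6, 23.8, 28.1 and 25.7 CPM in SCN9A_2544 libraries and at 10.2, 20.2, 22.1, 26.8 and 27.4 CPM in PBS libraries. PBS replicate 1 was the low library here, and the log2 fold change of 0.16 (SE 0.24) became -0.02 without it.

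Flt1 and Kdr are the receptors for vascular endothelial growth factor A. KDR (VEGFR2) transmits its main growth signal and FLT1 (VEGFR1) binds it tightly and limits that signal. Flt1 (ENSRNOG00000000940) stood at 18.2, 18.9, 21.99, 16.9 and 20.5 CPM in SCN9A_2544 replicates 1 to 5 and at 14.8, 21.9, 10.9, 15.9 and 17.8 CPM in PBS replicates 1 to 5, a log2 fold change of 0.25 (SE 0.18). Kdr (ENSRNOG00000046829) stood at 17.5, 19.1, 26.4, 20.3 and 20.3 CPM in SCN9A_2544 libraries and at 17.7, 25.9, 32.2, 22.04 and 29.2 CPM in PBS libraries, a log2 fold change of -0.30 (SE 0.18). The 95% intervals were -0.14 to 0.64 for Flt1 and -0.69 to 0.10 for Kdr, so at this replication neither a difference nor its absence is established. PBS replicate 3 had the most Kdr and the least Flt1 of the PBS group.

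After removal of the group means the Pearson r between Flt1 and Kdr over the 10 libraries was 0.01, while Kdr and Tek had 0.92. With the other endothelial members Flt1 had r from -0.27, for Tek, to 0.39, for Pecam1, so a low r was not particular to this pair. An r near 0 over 10 libraries does not establish that these receptor genes vary separately. The 250 bases before the start site of each receptor gene are shown as a description, and no relation of their letters to these r values was tested. They come from RefSeq, build GRCr8, whose table of promoters held 4 of the 10 members and these 2 of the 8 tested. Flt1 lies at chr12:12333180-12333429 and Kdr at chr14:32571813-32572062, both on the plus strand, and capitals mark, on either strand, the ETS core GGAA, the GC box GGGCGG, the cAMP response element TGACGTCA and the TATA box TATAAA.
Flt1: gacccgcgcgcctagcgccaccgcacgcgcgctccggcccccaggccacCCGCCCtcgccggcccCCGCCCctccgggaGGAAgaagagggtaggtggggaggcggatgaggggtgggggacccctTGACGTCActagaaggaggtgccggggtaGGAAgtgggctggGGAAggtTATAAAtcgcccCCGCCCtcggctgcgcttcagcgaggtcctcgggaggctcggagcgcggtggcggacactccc
Kdr: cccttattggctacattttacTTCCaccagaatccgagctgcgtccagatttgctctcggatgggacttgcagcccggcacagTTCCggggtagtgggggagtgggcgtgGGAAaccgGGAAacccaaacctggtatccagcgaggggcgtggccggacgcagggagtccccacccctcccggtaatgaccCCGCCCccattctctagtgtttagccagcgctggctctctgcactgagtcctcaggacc
The ETS core, bound by a family to which the endothelial regulator ERG belongs, was found 3 times in the Flt1 window and 4 times in the Kdr window, and in 93.2% of all 33469 windows of this length. The GC box was found 3 times for Flt1 and 1 time for Kdr, and is in 30.5% of windows. The Flt1 window alone of this pair held the cAMP response element, found in 1.59% of windows, and the TATA box, found in 12.9%. No marked motif overlapped another. A match describes the letters of the window and not a bound site.

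Tek (ENSRNOG00000008587) encodes TIE2, the angiopoietin receptor that keeps vessels quiescent. It stood at 17.2, 14.9, 24.3, 18.5 and 17.4 CPM in SCN9A_2544 replicates 1 to 5 and at 14.7, 19.8, 32.1, 18.02 and 22.9 CPM in PBS replicates 1 to 5. The log2 fold change was -0.22 (SE 0.21) and -0.03 without PBS replicate 3, the highest library. Vwf (ENSRNOG00000019689) encodes von Willebrand factor, the clotting protein that endothelial cells and megakaryocytes store. It stood at 40.3, 41.6, 83.0, 42.5 and 34.6 CPM in SCN9A_2544 libraries and at 35.8, 55.6, 61.5, 47.0 and 60.8 CPM in PBS libraries, a log2 fold change of -0.11 (SE 0.24) that became -0.43 without SCN9A_2544 replicate 3, the highest library of all.

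**Figure D2:**
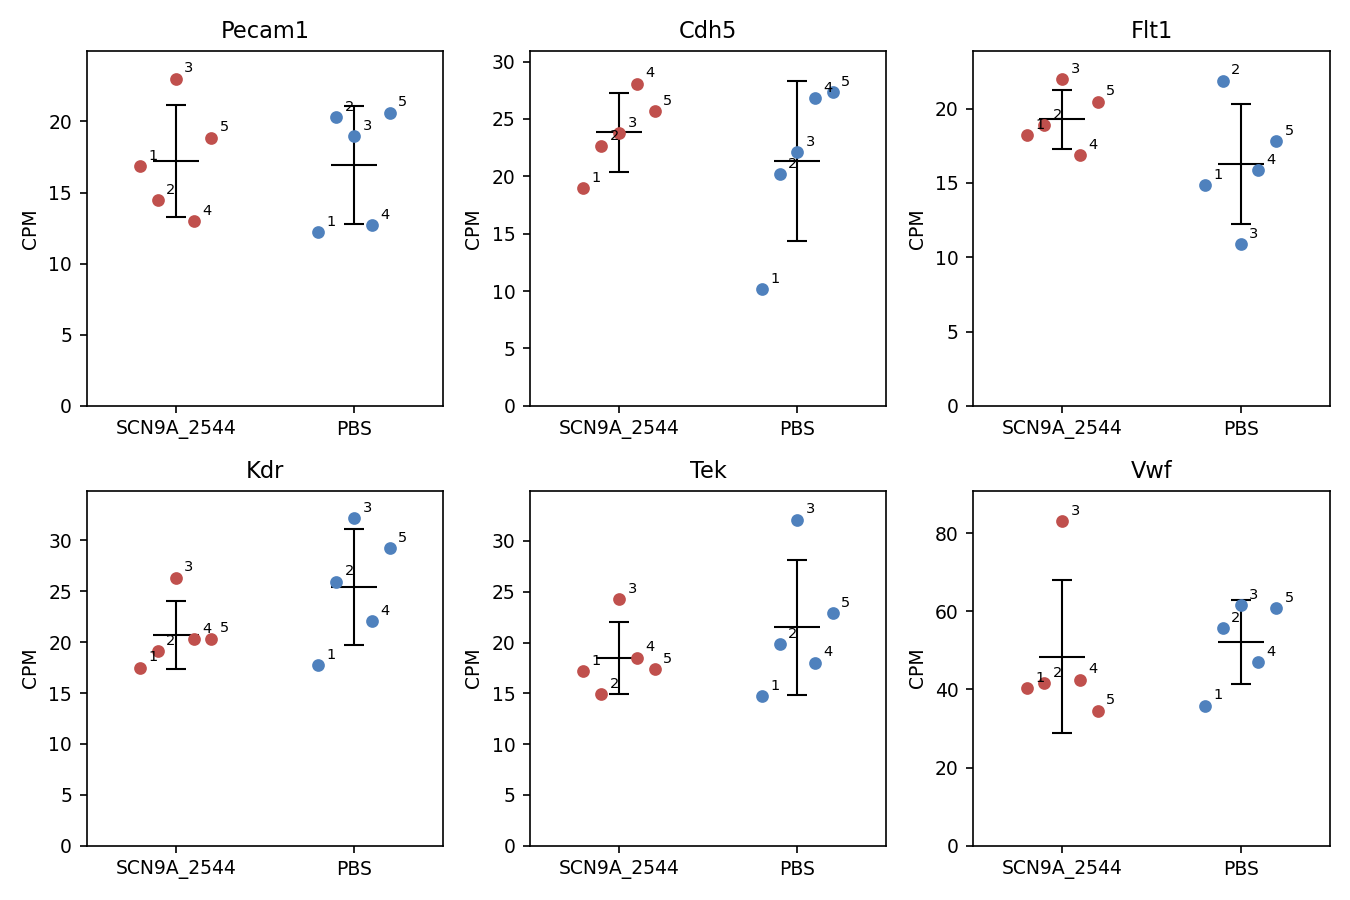
CPM of the 6 measured endothelial markers in each library (points, numbered by replicate) with the group mean and SD (bars). The groups overlap for each gene, and SCN9A_2544 replicate 3 is the highest treated library for Pecam1, Flt1, Kdr, Tek and Vwf.

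Averaged per library, the 6 endothelial genes gave 4.51 ± 0.22 log2 CPM in SCN9A_2544 and 4.52 ± 0.31 in PBS ganglia (SD, n = 5 each), a difference of -0.01. Set against this mean in the same library, Fabp4 stood at -4.18 ± 0.49 log2 units in SCN9A_2544 and -2.87 ± 0.71 log2 units in PBS ganglia (SD, n = 5 each), a difference of -1.31. Leaving out each library in turn kept this difference between -1.61 and -1.13. With the mean of 27 other endothelial genes as a covariate the log2 fold change of Fabp4 was -1.41, the same as without it to this precision. That mean differed by 0.06 log2 CPM between the groups and had a within-group r of -0.04 with Fabp4. As a covariate it could therefore hardly move the value, and nothing is concluded from this. Since the endothelial mean differed by only -0.01 between the groups, the difference relative to it is nearly that of Fabp4 itself. The part of capillary content in the Fabp4 difference was not tested.

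**Figure D3:**
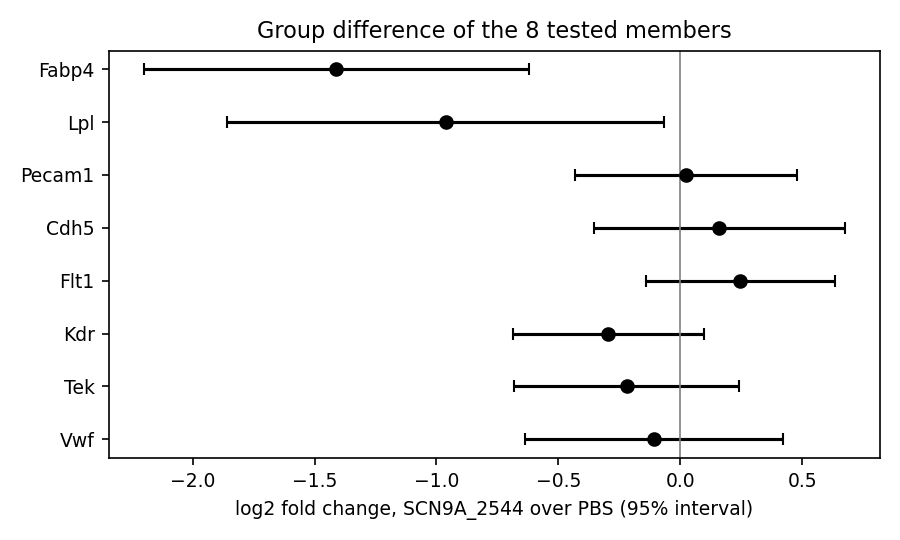
Log2 fold change, SCN9A_2544 over PBS, with its 95% interval for the 8 tested members. Fabp4, at -1.41, and Lpl, at -0.96, lie to the left of the 6 endothelial genes, which run from -0.30 to 0.25. Fabp4 was chosen for its difference in this contrast.

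Variation among libraries of the same group was a separate measure. After the group means were removed, 14 of the 15 pairs among the endothelial genes had a positive Pearson r over the 10 libraries, with a median of 0.49, and the 10 pairs without Flt1 ran from 0.31 to 0.92. Fabp4 had r between -0.24 and 0.31 with the same 6 genes, with a median of 0.03. Lpl had r between 0.18, with Flt1, and 0.76, with Kdr. These r values are descriptions, since all genes of a library share its depth and tissue composition. Many genes outside the set also ran with the mean of the 6. From 0.885% of them, for Kdr, to 38.9%, for Flt1, had a higher r with that mean than the member itself, and 17.7% did for Cdh5.

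Against the mean of 27 endothelial genes outside the set, Fabp4 had a within-group Pearson r of -0.04 (two-sided exact permutation p = 0.906, adjusted p = 0.906) and a Spearman rho of -0.14 (exact permutation p = 0.717, adjusted p = 0.717). Leaving out PBS replicate 1 and SCN9A_2544 replicate 3, the 2 libraries farthest from the median of that mean, gave r = -0.42. Such relations numbered 12, Fabp4 and Lpl each against 6 lists, and the adjustment runs over the 12, separately for r and for rho. Lpl had r = 0.71 with the same endothelial mean (exact permutation p = 0.0515, adjusted p = 0.15, rho = 0.59 with exact permutation p = 0.107 and adjusted p = 0.232), and r = 0.61 when the same pair of libraries was left out.

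Within groups Lpl ran with fibroblast and Schwann cell genes and against neuronal genes. The list means share the tissue composition of a library, so these are not separate relations. With the mean of 13 fibroblast and sheath genes its within-group r was 0.91 (exact permutation p = 0.00569, adjusted p = 0.0683) and its rho 0.88 (exact permutation p = 0.00285, adjusted p = 0.0342), and r was 0.74 when PBS replicates 1 and 5, which lie farthest out, were dropped. With the Schwann cell mean r was 0.75 (exact permutation p = 0.0143, adjusted p = 0.0858) and rho 0.84 (exact permutation p = 0.00667, adjusted p = 0.04), and r was 0.94 without the 2 farthest. With the pan-neuronal mean r was -0.60 (exact permutation p = 0.0624, adjusted p = 0.15) and rho -0.81 (exact permutation p = 0.013, adjusted p = 0.0519). By rank, then, Lpl passed the threshold with fibroblast and Schwann cell genes, and by Pearson's r with neither. The fibroblast mean itself was 7.43 ± 0.27 log2 CPM in SCN9A_2544 and 7.28 ± 0.54 in PBS ganglia (SD, n = 5 each).

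RNA of genes that define fat cells was scarce in these ganglia and summed lower in SCN9A_2544 ganglia. The 14 other adipocyte genes that had enough counts to be tested, described below, had a median log2 fold change of 0.03. The genes that define fat cells, adiponectin (Adipoq), perilipin 1 (Plin1), Cidec and leptin (Lep), were all below the count needed for testing. Their summed estimated counts were 6, 4, 7, 28 and 6 in SCN9A_2544 replicates 1 to 5 and 14, 11, 9, 37 and 5 in PBS replicates 1 to 5, or 51 in SCN9A_2544 and 76 in PBS ganglia. PBS replicate 4 alone held 37 of the 76. Lep was at 0 in 9 of the 10 libraries, and the brown fat gene Ucp1 likewise in 9. Replicate 4 of each group held the most of this RNA and also the most Fabp4 of its group, and replicate 5 held the least Fabp4 of each group.

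With the log2 of this summed CPM (pseudocount 0.5), a measure chosen after the values were seen, Fabp4 had a within-group Pearson r of 0.64 and a rho of 0.71 over the 10 libraries, given as a description over a handful of counts per library. The endothelial genes ran from -0.65, for Pecam1, to 0.19, for Cdh5, on the same measure. With it as a covariate the log2 fold change of Fabp4 was -1.22, and without replicate 4 of both groups it was -1.46. The summed CPM of these 4 genes was 0.272 to 1.76 in SCN9A_2544 and 0.334 to 3.16 in PBS ganglia, so the groups overlapped.

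The 4 genes are part of a list of adipocyte genes, 14 of which were measured with too few counts to be tested. Of these 14, 11 had a lower and 2 a higher mean CPM in SCN9A_2544 ganglia, and Aqp7 was at 0 in all libraries. Some of the 11 rest on very few counts, as Lep (0 in SCN9A_2544 and 1 in PBS), Ucp1 (0 and 2) and Adrb3 (0 and 5). The share over all genes with so few counts was not computed, so nothing is read from the count of directions. The summed counts of the 14 genes were 12, 19, 15, 45 and 11 in SCN9A_2544 replicates 1 to 5, against 32, 36, 38, 90 and 11 in PBS replicates 1 to 5, or 102 against 207 in all. The groups overlapped through SCN9A_2544 replicate 4 and PBS replicate 5, the same PBS library that overlapped for Fabp4. Plin4, a lipid droplet coat protein, had 0, 2, 1, 0 and 0 counts in SCN9A_2544 replicates 1 to 5, against 2, 5, 6, 7 and 2 in PBS replicates 1 to 5. Retn, which encodes the adipocyte hormone resistin, had 26 counts in SCN9A_2544 and 48 in PBS ganglia, and Thrsp, a regulator of lipid synthesis, had 13 counts in SCN9A_2544 and 36 in PBS ganglia. Adipoq had 14 counts in SCN9A_2544 and 29 in PBS ganglia, while Cidec had 27 in SCN9A_2544 and 25 in PBS ganglia.

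On the log2 sum of all 14 genes (pseudocount 0.5), also chosen after the values were seen, Fabp4 had a within-group r of 0.76 and a rho of 0.68 over the 10 libraries. The endothelial genes ran from -0.64, for Pecam1, to 0.17, for Cdh5. With this sum as a covariate the log2 fold change of Fabp4 was -0.95, against -1.41 without it, and Fabp4 minus the endothelial mean was at -0.81, against -1.31. The sum of these 14 low-count genes was lower in SCN9A_2544 ganglia, as Fabp4 was, and varied with Fabp4 within groups. This relation was not tested, and the share of all genes that reach such an r with Fabp4 was not computed. The part of fat in the Fabp4 difference was not tested either.

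The wider list of 31 adipocyte genes had 14 tested members, 7 above and 7 below 0, with a median log2 fold change of 0.03, and 0 passed in either direction. Most of these 14 are enzymes of lipid synthesis and breakdown that other cells use too. The 4 with the smallest p were Acly, G0s2, Cfd and Lipe. Acly, which makes acetyl-CoA for lipid synthesis, was at a log2 fold change of 0.29 and the lipolysis inhibitor G0s2 at -0.43. Cfd, complement factor D or adipsin, was at 0.40, and hormone-sensitive lipase, Lipe, at 0.29. Fabp4 had a within-group r of 0.40 with the mean of the 14 (exact permutation p = 0.298, adjusted p = 0.511, rho = 0.28 with exact permutation p = 0.446 and adjusted p = 0.681), and 0.78 when PBS replicate 1 and SCN9A_2544 replicate 3 were left out.

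**Figure D4:**
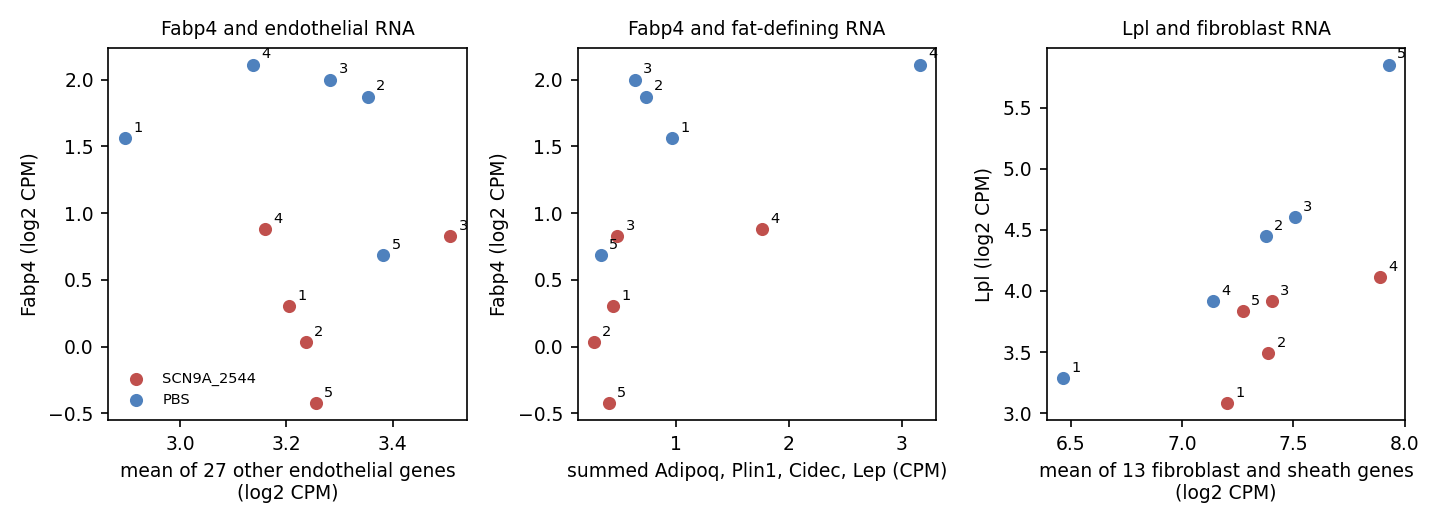
Each point is a library, numbered by replicate and coloured by group. Fabp4 in log2 CPM is set against the mean of 27 other endothelial genes and against the summed CPM of 4 genes that define fat cells, and Lpl is set against the mean of 13 fibroblast and sheath genes. Within groups, r is -0.04 for Fabp4 with endothelial RNA and 0.91 for Lpl with fibroblast RNA.

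Macrophages also make FABP4, and most of their markers had higher values in SCN9A_2544 ganglia. The summed CPM of 18 macrophage markers was 302 to 521 in SCN9A_2544 and 196 to 295 in PBS libraries, with no overlap. Of the 17 tested, 16 had a log2 fold change above 0 and 1 below, against 46.6% below 0 over all genes. Of these, 0 passed an adjusted p of 0.05 by edgeR and 9 were higher at an unadjusted p under 0.05, against 2.5% of all genes. The lowest p-values in this list went to complement C1qa (1.03 on the log2 scale), C1qc (0.96), C1qb (0.99) and the lysosomal Gpnmb (1.02). This direction is opposite to that of Fabp4, and the part of macrophages in the Fabp4 difference was not tested. Within the groups Fabp4 and the macrophage mean had r = 0.63 (exact permutation p = 0.0626, adjusted p = 0.15) and rho = 0.81 (exact permutation p = 0.0224, adjusted p = 0.0673), so this relation did not pass. Without the 2 farthest libraries, SCN9A_2544 replicates 3 and 4, r was 0.43. The group means were not taken anew for this value, so it can hold part of a group offset. With the macrophage mean as a covariate, a choice made after the data were seen, the log2 fold change of Fabp4 was -2.14.

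Endothelial genes outside the set were also tested. Of 27 tested, 16 lay above and 11 below 0, with a median log2 fold change of 0.02, and 0 passed by edgeR. An unadjusted p under 0.05 was reached by 2, both higher, against 2.5% of all genes, and the groups did not overlap for 1 of them, against 0.665% of all genes. Eng, the TGF-beta co-receptor endoglin, stood at 22.7 to 28.3 CPM in SCN9A_2544 and 15.5 to 22.2 CPM in PBS libraries, with no overlap (log2 fold change 0.49, SE 0.15, edgeR adjusted p = 0.963). Sox18, a transcription factor of endothelial cells, stood at 3.78 to 7.22 CPM in SCN9A_2544 and 1.99 to 5.30 CPM in PBS libraries (log2 fold change 0.82, SE 0.29, edgeR adjusted p = 0.963). Genes of vessel segments and of the barrier numbered 21 tested, 9 above and 12 below 0, with a median of -0.01. The 13 tested genes of mural cells, the pericytes and smooth muscle around vessels, had a median of -0.07.

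Ligands and partners of the receptors were also tested. The VEGF and angiopoietin list had 15 tested members, 10 above and 5 below 0, with a median log2 fold change of 0.05, and 0 passed. Its 4 smallest p-values belonged to the receptor Notch1 at 0.60, the VEGF co-receptor Nrp1 at 0.30, the apelin receptor Aplnr at 0.55 and the ligand Vegfa at 0.23. Vegfa, which binds both Flt1 and Kdr, stood at 84.8 ± 16.5 CPM in SCN9A_2544 and 72.2 ± 12.4 CPM in PBS ganglia (SD, n = 5 each).

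For lipoprotein lipase the question is whether its partners moved with it. Of 10 tested genes of this system 9 lay above 0 and 1 below, with a median log2 fold change of 0.18, and 0 passed. Angptl4, a secreted inhibitor of the lipase, stood at 5.31 to 10.4 CPM in SCN9A_2544 and 2.20 to 5.72 CPM in PBS libraries (log2 fold change 0.75, SE 0.28, edgeR adjusted p = 0.963). Pcsk6, a protease that can cleave the lipase, was the 1 member below 0, at -0.64 (SE 0.24, edgeR adjusted p = 0.963). Gpihbp1, which carries the lipase to the capillary lumen, stood at 1.03 ± 0.95 CPM in SCN9A_2544 and 0.800 ± 0.35 CPM in PBS ganglia (SD, n = 5 each), too few counts to tell a difference.

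Fatty acid transport and use covered 30 tested genes, 18 above and 12 below 0, with a median of 0.06, and 0 passed. Meox2, a transcription factor that in mouse heart capillaries acts with Tcf15 on fatty acid uptake genes, stood at 2.55 to 4.72 CPM in SCN9A_2544 and 1.92 to 10.8 CPM in PBS libraries (log2 fold change -0.88, SE 0.40, edgeR adjusted p = 0.963). Tcf15 itself stood at 2.13 ± 0.27 CPM in SCN9A_2544 and 2.13 ± 0.84 CPM in PBS ganglia (SD, n = 5 each), a log2 fold change of 0.00. Pparg, the nuclear receptor that drives Fabp4 in fat cells, had a log2 fold change of 0.13 (SE 0.28). Among the related binding proteins, Fabp3 was at -0.18 (SE 0.30) and Fabp7, made by satellite glia, at 0.32 (SE 0.29), both on the log2 scale, while Fabp5 was not analysed here.

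**Figure D5:**
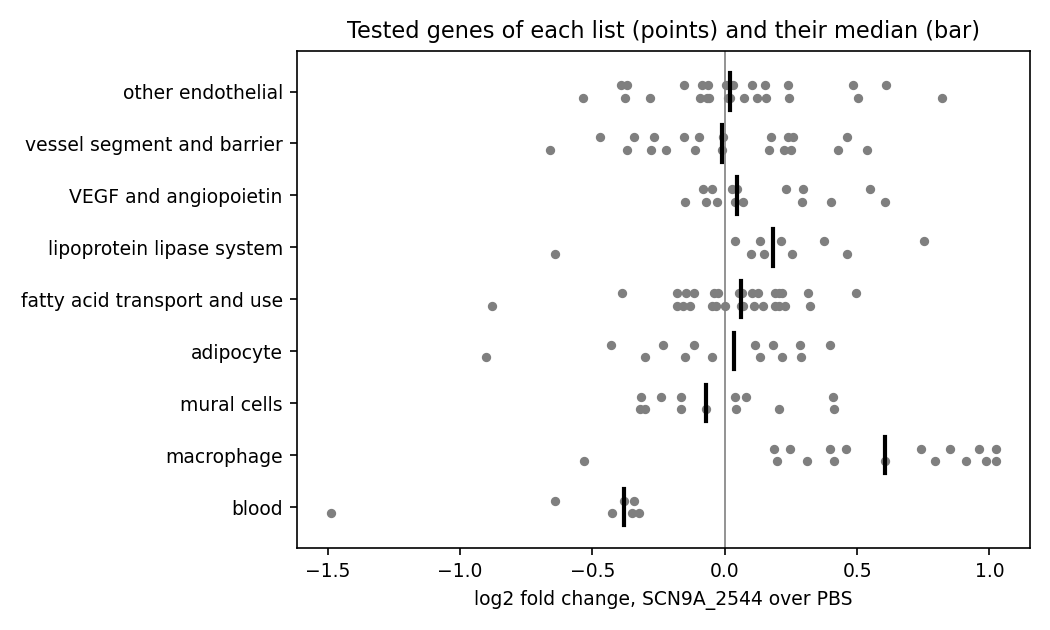
Log2 fold change, SCN9A_2544 over PBS, of the tested genes in 9 lists (points) with each list's median (bar). The 27 other endothelial genes centre at 0.02 and the 14 adipocyte genes at 0.03, while the 17 macrophage genes centre at 0.60.

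Blood left in the vessels differed between libraries. The summed CPM of 8 red cell genes was 969 to 2039 in SCN9A_2544 and 286 to 3888 in PBS libraries. PBS replicate 5, low in Fabp4, had the lowest of these sums. All 7 tested red cell genes lay below 0, against 46.6% of all genes, with a median log2 fold change of -0.38. Of these, 0 passed by edgeR or reached an unadjusted p under 0.05. The median of the library sums was 1744 CPM in SCN9A_2544 and 1499 CPM in PBS ganglia, the other direction. Platelet genes, whose cells also carry Pecam1 and Vwf, had 5 tested members with a median of -0.45, and 1, Itga2b, at -0.93, was lower at an unadjusted p under 0.05, against 1.73% of all genes. Other cell types gave medians of 0.37 for 5 lymphatic, 0.29 for 10 satellite glia, -0.08 for 13 fibroblast and sheath, 0.56 for 8 skeletal muscle, -0.30 for 15 Schwann cell and 0.03 for 20 pan-neuronal genes. The part of blood in the values of Fabp4, Pecam1 and Vwf was not tested.

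Genes most like Fabp4, and most like the endothelial mean, in their pattern were sought among 14692 genes outside the set with a mean of at least 1 CPM, by Pearson r of group-centred log2 CPM over the 10 libraries. For Fabp4 they were Gtse1 (0.96), Arhgef39 (0.94), Neil1 (0.92), Il10ra (0.92), Cyp4f5, Ppdpf, Nrros and Nek2l1 (each 0.90). For the mean of the 6 endothelial genes they were Notch2, Col5a1, Arhgef10, Pard3, Ankh, Lamb2, Fbn1 and Ptpn14, with r from 0.98 to 0.99. The lists of 8 shared no gene. For Lpl, a list added after the values were seen, they were Bicc1, Foxs1, Il33, Tbx18, Ebf2, Pcolce, Kif13b and Col6a6, with r from 0.95 to 0.98. With so many genes and 10 libraries, r of this size is a description of likeness only. For Vwf, the endothelial gene nearest to Fabp4, 18.2% of those genes had a higher r with Fabp4.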

How the data were processed

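The authors deposited estimated counts for each gene and library without normalization; between 11.6% and 12.4% of a library's values were not whole. Tools listed by the submitters' processing notes are STAR 2.7.10a and DESeq2 1.44.0, and the build is mRatBN7.2. The counting program and strand setting are not stated in these notes. Counts were rounded, where the design had assumed raw counts. Genes were filtered with filterByExpr (minimum count 10, minimum total 15), scaled by TMM and fitted with edgeR 4.0.16 in R 4.3.3 (quasi-likelihood F-test, Benjamini-Hochberg adjustment over 15186 genes, threshold 0.05). Log2 CPM used a prior count of 2.

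The members and all lists were chosen with earlier results of these data known. The design named 7 endothelial members and 18 relations; without Cldn5 and Cd36, 6 and 12 were computed. Relations permuted libraries within groups over all 14400 orders. Each r without 2 libraries kept the group means of the full set of libraries. The lists held 279 genes, 265 with a row (2 under a RefSeq synonym) and 230 tested. Named genes are the members, up to 4 of smallest p in a list, fat-defining genes and partners set down with the lists, and the 8 most alike in pattern; Ucp1, Fabp7, Plin4, Retn, Thrsp and Aqp7 were named after their values were seen. The fit was tested on simulated data. Alternatives were limma 3.58.1 (voom), DESeq2 1.42.0, other scalings and filters, composition covariates and libraries left out.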

Additional observations from a re-analysis of the deposited data

Results flagged for a closer look

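Vwf in SCN9A_2544 replicate 3, at 83.0 CPM, stood far from the other 4 treated libraries, which ran from 34.6 to 42.5 CPM. The gap from this library to the next, as a share of the group's range on the log2 CPM scale, was 0.764. Among the 16 combinations of gene and group looked at it was the only flag, and chance flags about 1 in 20. The same library had the lowest pan-neuronal mean, 8.33 log2 CPM, and the highest Schwann cell mean, 10.0 log2 CPM, of all 10. Without it the log2 fold change of Vwf was -0.43.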

How the results depend on the processing

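The log2 fold change of Fabp4 stayed below 0 in all 24 alternatives, from -2.14 to -0.95, and Fabp4 minus the endothelial mean in all 25, from -1.68 to -0.81; both upper ends came with the sum of 14 untested adipocyte genes as a covariate. With 1 library left out they ran from -1.61 to -1.24 and from -1.61 to -1.13. With the macrophage mean as a covariate Fabp4 was at -2.14, the mean difference of the endothelial members at -0.28 and Vwf at -0.62; the cause was not tested. That mean difference, -0.01 as reported, turned sign in 9 of 26 alternatives, and ran from -0.14 to 0.03 with 1 library left out. Lpl, Kdr, Tek, Vwf and Flt1 kept their signs in all 25, Cdh5 turned in 2 and Pecam1 in 14. Genes called over the whole table numbered 0 as reported, 12 by DESeq2's Wald test, and 1 each by limma voom with library weights, with the pan-neuronal or the Schwann cell mean as a covariate, and after the 3 neuron-poor libraries were dropped; with 1 library left out they ran from 0 to 1. Of the members tested, 0 passed in any of these settings. A minimum count of 50 gave no value for Fabp4. Replicate numbers 1 to 5 occur in both groups, but the deviations of same-numbered libraries correlated between 0.01 and 0.56, over 0.1 in 3 of 5 pairs, and 7 of the 10 libraries were closest to the one of their own number. Nothing in the labels ties the numbers to a shared animal, litter or day, so they were not taken as pairs, though some shared structure is visible and the within-group permutations treat libraries as exchangeable. With the replicate number as a block Fabp4 was at -1.43, Lpl at -0.74, Fabp4 minus the endothelial mean at -1.31, the endothelial mean difference at -0.01, and 0 genes were called. Fabp4 rests on 9 to 55 counts a library.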
